A study of Mus musculus with 14 samples.

Results

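The comparison described here is that of folinic acid with saline in the uterus of wild-type mice, taken through every gene measured. It rests on 7 of the 14 arrays of the series, all those labelled wild type, with 3 uteri after folinic acid and 4 after saline. The females were C57BL/6, fed a chow diet, and the whole uterus was taken on day 3.5 of gestation, counted from a vaginal plug at day 0.5. Per the labels, folinic acid was injected into the peritoneum 2 times at 12.5 mg/kg, 10 and 3 days before mating. The controls are labelled as injected with saline, without a statement of whether the days were the same, and the age of the females is not given in the labels. The other 7 arrays come from females of the same strain homozygous for a mutation of Folr4, 4 after folinic acid and 3 after saline. They serve here as a separate set of uteri in which the same contrast can be read. The labels call the replicates biological. A number in the sample titles is shared by saline replicates 2 and 3 and another by folinic acid replicates 1 and 2, with no meaning given, so whether these uteri are related is not known and p-values measure the spread between arrays.

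Folinic acid is a reduced folate. Cells take up folates through receptors and carriers and use them to move single carbon units into purines, thymidylate and methionine, and methionine feeds the methyl donor of DNA and histone methylation. The uterus at this stage lies under rising progesterone, its lumen is closing, its glands release the cytokine LIF near the time of attachment, and its stroma is preparing to decidualize. The labelled tissue was borne out by its defining markers. The progesterone receptor gene Pgr had signals of 7048 to 14519 over the 7 wild-type arrays, the uterine homeobox gene Hoxa10 3312 to 5250, the epithelial keratin gene Krt8 6270 to 16693 and the stromal proteoglycan gene Dcn 23060 to 35187. Genes of neighbouring organs such as Cyp11a1 of the ovary (at most 44.6), Ckm of skeletal muscle (at most 133) and Foxj1 of ciliated oviduct cells (at most 45.8) lay below the median of all probe sets. Others did not: Acta1, the skeletal actin gene, had 736 to 3074 over the 7 wild-type arrays, and Star, a steroidogenic gene of the ovary, 149 to 348. Ovgp1, a secreted glycoprotein of the oviduct, was present on every array and ranged from 2379 to 14999 within the folinic acid group and from 4596 to 13772 within the saline group.

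Each value is a linear intensity signal per probe set, scaled by the authors to the same trimmed mean on each array. Of 45037 probe sets that are not controls, the 22519 with a mean log2 signal at or above the median (a signal of 134) were tested, and 19116 of these carry 1 gene symbol, for 11269 genes. The arrays differed little in depth of signal, with medians of 134.7 to 156.7. Saline replicate 3 stood apart. Its mean Spearman correlation with the other wild-type arrays was 0.935, against 0.948 to 0.955 for the others, and its 3-prime to 5-prime ratios of actin (3.64, the others 1.68 to 2.42) and Gapdh (2.48, the others 1.14 to 1.68) were the highest. Values without it are given for the lists described below whose median then moved by over 1.5 times or turned sign. The groups as a whole did not differ detectably in the actin ratio (exact permutation test, two-sided, p = 0.571), the Gapdh ratio (exact permutation p = 0.543) or the median signal (exact permutation p = 0.771). The smallest p that 35 relabellings of 7 arrays allow is 0.0286.

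No gene passed the threshold in wild-type uteri. Of the 22519 probe sets, 0 (0.0%) had an adjusted p under 0.05 in limma with Benjamini-Hochberg adjustment, and the smallest adjusted p was 0.999995. At an unadjusted p under 0.05 there were 611 probe sets, 268 higher and 343 lower after folinic acid, where 1126 would be expected with no difference at all. At an unadjusted p under 0.001 there were 9, against 22.5 expected. The standard error of a log2 difference was 0.22 at the median probe set, the median 95% confidence interval extended 0.48 to each side, and 87.5% of probe sets had an interval that lay wholly within a 2-fold change in either direction. The middle of the distribution was narrow, with log2 differences from -0.37 at the 5th percentile to 0.38 at the 95th. The exceptions were few. Differences over 2-fold were seen for 76 probe sets, 59 higher and 17 lower, and in 18 of these the 3 folinic acid arrays and the 4 saline arrays did not overlap.

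For genes taken through 1 probe set each, that with the highest mean signal, 1.23% were higher and 1.1% lower at an unadjusted p under 0.05. The arrays of the 2 groups did not overlap for 2.71% of genes on the higher side and 2.09% on the lower side. These 4 shares are the background for every count of list members below. The median log2 difference over all genes was 0.02, with 53.5% of genes higher. The values below are thus descriptions of a contrast without a called gene, and the words higher and lower refer to group means.

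The contrast leaned to the lower side among the brightest probe sets. The 490 probe sets with a mean signal of at least 10000 had a median log2 difference of -0.18, and 85.9% of them were lower after folinic acid. The median signal of these probe sets was 17723, 19107, 19000 and 18371 in saline replicates 1 to 4 and 15867, 16005 and 18505 in folinic acid replicates 1 to 3. Folinic acid replicate 3 lay inside the saline range and the other 2 below it (exact permutation test, two-sided, p = 0.143). The 4 dimmer classes had medians between -0.01 and 0.02. When the arrays were given the same distribution of signals by quantile normalization, the bright median was 0.001 with 49.4% lower, and the number of bright probe sets lower at an unadjusted p under 0.05 went from 66 to 9. Quantile normalization makes the bright ends of all arrays alike, so such a bright median was close to fixed in advance. It would remove a shared shift of bright probe sets whatever its source, and the source was not tested. On the authors' scale the bright median was -0.17 without saline replicate 3. It lay between -0.26 and -0.13 over all 7 arrays left out in turn. It was -0.38 in the mutant uteri. The lists below with at least 5 members of this brightness are therefore given on both scales.

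**Figure D1:**
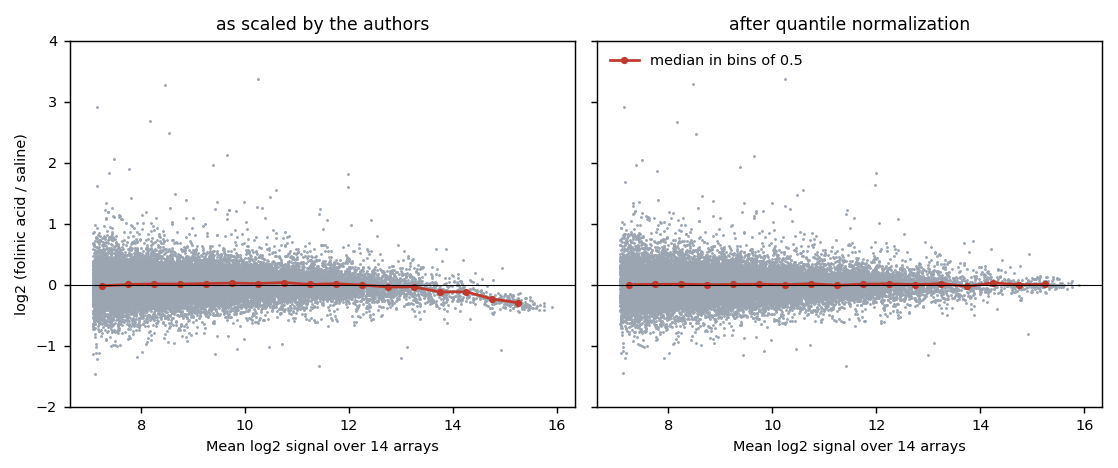
Log2 ratio of folinic acid to saline in wild-type uteri (y) against the mean log2 signal over 14 arrays (x), 1 grey point per probe set, with the median in bins of 0.5 in red. As scaled by the authors (left) the bins at the bright end bend below 0, where the 490 probe sets with a mean signal of at least 10000 have a median of -0.18, and after quantile normalization (right) these have a median of 0.001.

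The genes that led the contrast were chosen, among probe sets with 1 gene symbol, by the smallest p or by the largest difference without overlap, and came to 36 probe sets, 18 higher and 18 lower. The choice used the values, so these are descriptions. In 35 of the 36 the arrays of the groups did not overlap, the exception being Faap20. All 36 kept their direction under quantile normalization. They also kept it when any 1 of the 7 arrays was left out, which for the 35 without overlap could not have come out otherwise.

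The largest difference was that of Olfm4, which encodes olfactomedin 4, a secreted glycoprotein of epithelial crypts. Its signal was 855, 71.6, 1092 and 106 in saline replicates 1 to 4 and 7156, 2778 and 1371 in folinic acid replicates 1 to 3. The fitted difference was 10.4-fold (log2 3.37 ± 1.01, SE). All 3 folinic acid uteri were above all 4 saline uteri, yet the saline uteri themselves lay in a high and a low pair, and the high pair was nearer to the lowest folinic acid array than to the low pair. The keratin gene Krt5 of basal and squamous epithelium, which belongs to the oestrogen-response list, had the same high and low saline pairs at 932, 73.7, 1119 and 104, with 3968, 946 and 599 after folinic acid (log2 2.13 ± 0.91), so its groups overlapped. Serpinb11, a serine protease inhibitor, had 903, 281, 921 and 406 after saline and 2807, 1094 and 937 after folinic acid (log2 1.36 ± 0.50). Il33, an alarmin cytokine of epithelial and stromal cells, was ordered alike in the saline group at 681, 182, 825 and 304, with 1135, 711 and 479 after folinic acid (log2 0.79 ± 0.51). In these 4 genes saline replicates 1 and 3 were the high pair, and folinic acid replicate 1 was the highest of all arrays. Galnt6, an enzyme that starts mucin-type glycans, was also highest in folinic acid replicate 1 (421, the other 2 at 162 and 163) over a saline range of 73.1 to 147. Its log2 difference was 1.19 ± 0.35 and moved to 0.73 without that array.

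Errfi1, the progesterone-responsive brake on EGF receptor signalling also known as Mig6, was higher through both of its probe sets. The dimmer one had 1337, 658, 551 and 1432 after saline and 2352, 4661 and 1774 after folinic acid, which gave a log2 difference of 1.56 ± 0.52. The brighter one had a saline range of 2839 to 5606 and a folinic acid range of 5321 to 10531, with a log2 difference of 0.80 ± 0.37. The groups were apart in the first and overlapped in the second, and folinic acid replicate 2 was highest in both. Csf3, a granulocyte growth factor, and the tetraspanin gene Tspan1 were also among the large differences on this side, at 1.08 ± 0.35 and 1.03 ± 0.42. Both were at modest signal, with folinic acid values of 197 to 319 for Csf3 and 447 to 530 for Tspan1.

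Among probe sets with 1 gene symbol, the smallest p on the higher side belonged to Wdr48, a partner of deubiquitinases that act on the Fanconi anaemia pathway. It had signals of 674, 444, 547 and 466 after saline and of 1238, 793 and 866 after folinic acid, and an unadjusted p of 0.000334. Sik3, a salt-inducible kinase, had 248, 219, 154 and 195 against 385, 331 and 380. Faap20, a subunit of the Fanconi core complex, had 679, 450, 428 and 1058 against 1002, 1944 and 1462, where saline replicate 4 lay above the lowest folinic acid array. The flap endonuclease gene Fen1 had 1555, 1288, 1070 and 800 against 2049, 2221 and 1893. In Sik3 and Fen1 the 3 folinic acid arrays lay close together and the spread was in the saline group. Smarcb1, a core subunit of SWI/SNF chromatin remodellers, had 518, 474, 423 and 275 against 600, 807 and 1397, and its log2 difference of 1.09 ± 0.30 moved to 0.76 without folinic acid replicate 3. The remaining genes of this rule were Tom1l2 (endosomal sorting, log2 0.54 ± 0.13), the ferroptosis suppressor Aifm2 (0.79 ± 0.21), Smco4 (0.59 ± 0.17), the endothelial ligand Gdf2 (0.80 ± 0.23), the Mediator subunit gene Med20 (0.42 ± 0.12), Alas1, which starts haem synthesis (0.57 ± 0.17), and Arhgef15, an exchange factor of endothelium (0.80 ± 0.23).

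On the lower side the smallest p of these genes belonged to Hnrnpu, which encodes a nuclear RNA- and scaffold-binding protein. Its signal was 3094, 2286, 2533 and 2028 after saline and 1471, 980 and 1362 after folinic acid, with an unadjusted p of 0.000219. Marcks, a membrane-bound substrate of protein kinase C that binds actin, had 7065, 13219, 15516 and 10542 against 5264, 5211 and 6020. Tex261, a factor of export from the endoplasmic reticulum, had 1071, 645, 948 and 1031 against 445, 326 and 488. Thoc1, a subunit of the THO complex that couples transcription to mRNA export, had 199, 208, 234 and 207 against 96.7, 162 and 89.0. The folinic acid values of Marcks lay within a narrow band under a wide saline range, while those of Thoc1 were near the level of the filter. The nuclear long noncoding RNA Malat1 had 37127, 39128, 69686 and 28783 against 19468, 14183 and 27552, and a log2 difference of -1.07 ± 0.31 that was -0.81 after quantile normalization and -0.82 without saline replicate 3. Mgp, the matrix Gla protein gene, had 18376, 15793, 24636 and 18397 against 13372, 11535 and 12140, at -0.63 ± 0.18 and at -0.49 after quantile normalization. Tmsb10, which encodes an actin-sequestering thymosin, had 19954 to 30407 against 14952 to 18154, at -0.56 ± 0.14 and at -0.40 after quantile normalization. Malat1, Mgp and Tmsb10 are bright, and part of each difference was absent on the quantile scale.

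The other lower genes were dimmer. Cdip1 (log2 -1.14 ± 0.33), the ubiquitin ligase gene Trip12 (-1.02 ± 0.35), the collagen gene Col8a2 (-1.01 ± 0.31), the proteasome adaptor gene Ecpas (-0.89 ± 0.31) and the aminopeptidase gene Xpnpep2 (-0.88 ± 0.33) had the largest differences. Pttg1ip (-0.60 ± 0.17), the mRNA decay factor gene Zfp36l1 (-0.57 ± 0.16), the phosphatase subunit gene Ppp2r2a (-0.69 ± 0.19), Arid4a (-0.73 ± 0.21), the end-joining repair gene Xrcc4 (-0.60 ± 0.17) and Hnrnpul2 (-0.54 ± 0.15) had small p. Saline replicate 3 was the highest array in 9 of these 11. Without it Ecpas moved from -0.89 to -0.55 and Ppp2r2a from -0.69 to -0.52.

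Other probe sets of the same genes often showed less. Among the 18 leading probe sets on the higher side, 9 of 14 further probe sets of their genes shared the sign, and on the lower side 23 of 40. Wdr48 had 0.15 ± 0.14 through a probe set of mean signal 924 and 0.11 ± 0.20 through one of 327. Smarcb1 had -0.04 ± 0.12 through a probe set of mean signal 1392, and Alas1 had -0.07 ± 0.19 through one of 1569. Sik3 had -0.09 ± 0.18 through one of 1645 and 0.05 ± 0.22 through one of 396. Faap20 had 0.03 ± 0.21 through one of 1648 and 0.27 ± 0.17 through one of 964. For Malat1 the other values ran from -1.20 ± 0.36 to 0.17 ± 0.35, the latter at the lowest mean signal of its probe sets, 173. For Marcks the other values were all lower and ran from -0.52 ± 0.19 to -0.09 ± 0.25. The brightest of these probe sets, of 10774, gave -0.12 ± 0.14. Fen1 was higher through its other probe set too, by 0.28 ± 0.29. A gene named here is thus often a statement about 1 probe set.

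**Figure D2:**
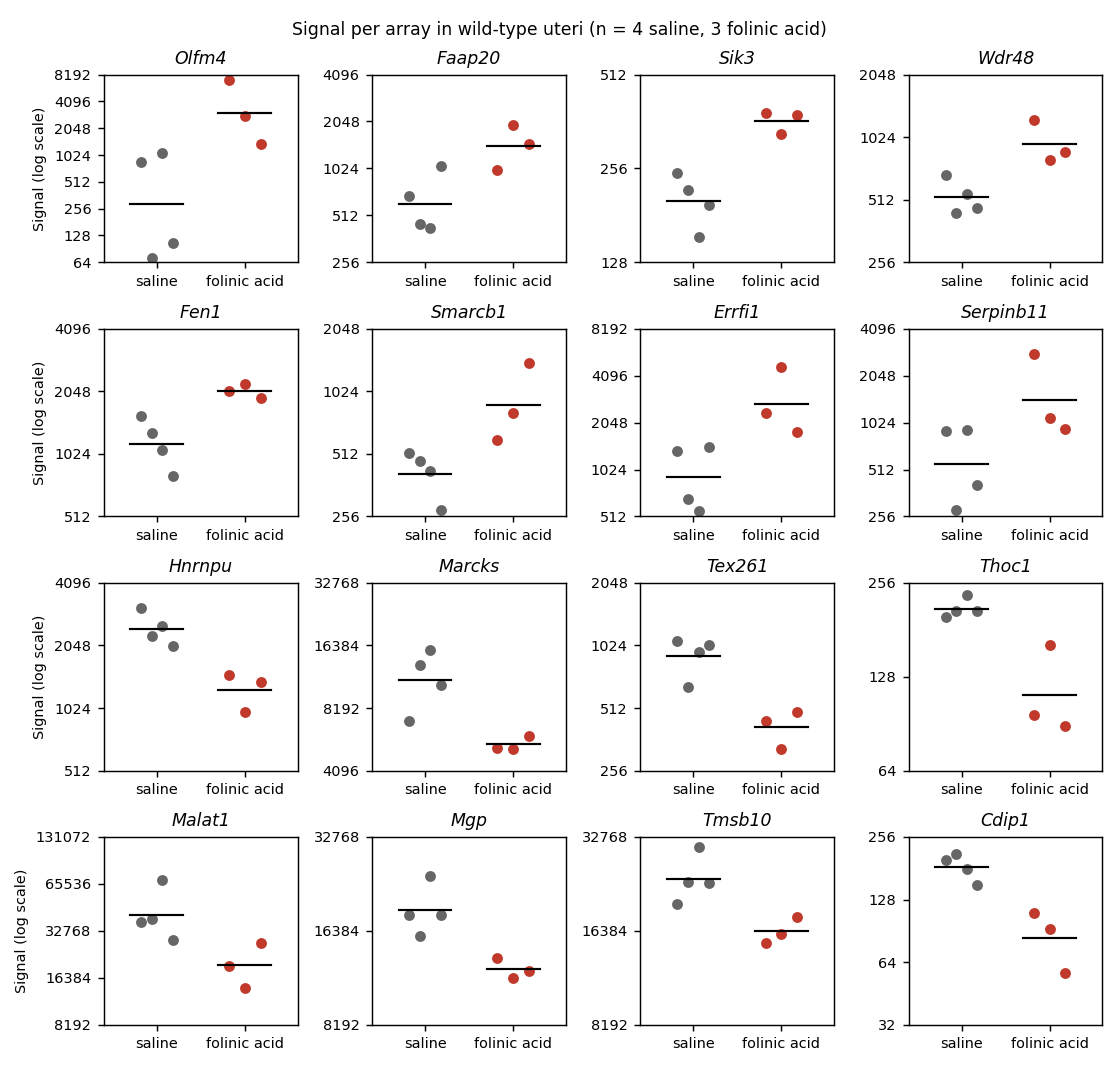
Signal per array (log scale, which differs between panels) of 16 leading genes in wild-type uteri, with 4 saline arrays in grey, 3 folinic acid arrays in red and the geometric mean of each group as a bar. The groups overlap in Faap20 and not in the other panels, and Olfm4 spreads from 71.6 to 1092 within saline alone.

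The mutant uteri gave a separate reading of these 36 probe sets, since no array is shared between the contrasts, although both use the same estimate of the variance. On the higher side 16 of 18 had the same sign in mutants, and 8 of them had an unadjusted p under 0.05 in that direction, where 6.01% of all probe sets with 1 gene symbol did. On the lower side 14 of 18 had the same sign and 6 had an unadjusted p under 0.05, against a background of 6.65%. This side holds bright probe sets, such as those of Malat1, Mgp and Tmsb10, and bright probe sets were lower in mutants too (median -0.38). The mutant values are as scaled by the authors, and the background is not matched for brightness. Faap20, through its leading probe set, was higher by 1.14 ± 0.30 in mutants against 1.22 ± 0.30 in wild type. Serpinb11 was higher by 1.38 ± 0.50 against 1.36 ± 0.50, and Olfm4 by 2.18 ± 1.01 against 3.37 ± 1.01. Med20 (0.45 ± 0.12 against 0.42 ± 0.12), Pttg1ip (-0.57 ± 0.17 against -0.60 ± 0.17) and Ppp2r2a (-0.76 ± 0.19 against -0.69 ± 0.19) had much the same value in both. Others had the opposite sign. Sik3 was at -0.15 ± 0.20, Arhgef15 at -0.19 ± 0.23 and Cdip1 at 0.44 ± 0.33 in mutants. The difference between genotypes had an unadjusted p under 0.05 for 13 of the 36, but limma called 0 of 22519 probe sets for it (smallest adjusted p = 0.905), with 1104 at an unadjusted p under 0.05. The mutant contrast itself had 0 called probe sets and 2887 at an unadjusted p under 0.05, and 51.0% of probe sets with 1 symbol were higher in it.

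**Figure D3:**
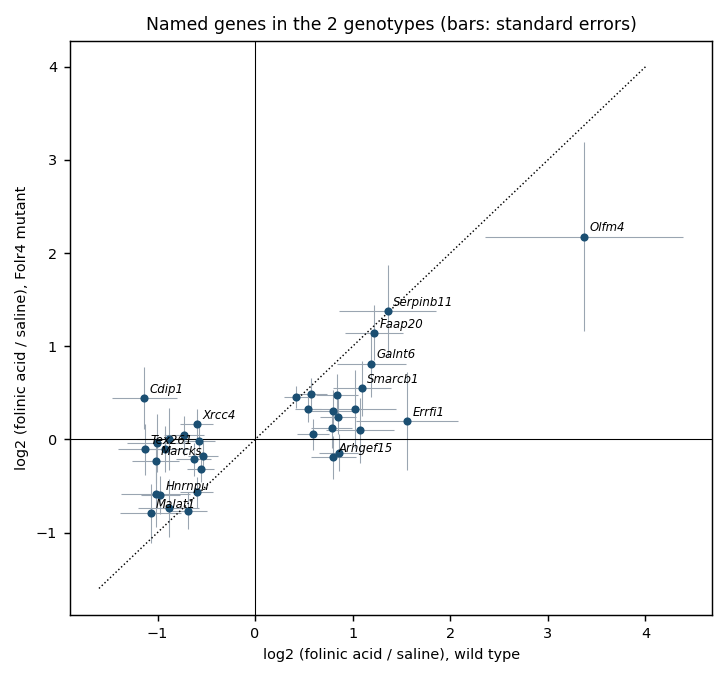
Log2 ratio of folinic acid to saline in wild-type (x) and Folr4 mutant uteri (y) for the 36 leading probe sets, with standard errors as bars and the line of equal values dotted. Of the 18 on the right, 16 lie above 0 in mutants, and of the 18 on the left, 14 lie below 0.

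Genes of the folate pathway did not stand out. The receptors and carriers came first. Folr1, the epithelial receptor (signals of 98.1 to 322 after saline and 88.4, 111 and 117 after folinic acid), and Folr4, whose current symbol is Izumo1r and which encodes the egg receptor for sperm (at most 72.4 and 54.8), lay below the filter. Folr2, a folate receptor of macrophages, had 497, 217, 466 and 586 after saline and 281, 595 and 329 after folinic acid, and the groups overlapped (log2 -0.12 ± 0.42). Slc19a1, the reduced folate carrier, through which folinic acid enters most cells, had 939, 854, 615 and 862 against 826, 785 and 887. Its log2 difference was 0.04 ± 0.16 with a 95% confidence interval of -0.30 to 0.39, so a change of 1.5-fold lay outside the interval. Slc46a1, the proton-coupled carrier, was at -0.06 ± 0.25, and Fpgs, which adds glutamates that hold folates in the cell, at 0.16 ± 0.21. Of 11 measured genes of uptake and retention, 6 were higher and 5 lower, with a median of 0.04 (-0.05 without saline replicate 3), and 0 had an unadjusted p under 0.05. The widest value was that of Lrp2, the endocytic receptor megalin, at 0.60 ± 0.99, where saline replicate 2 had 3885 and the other saline arrays 959 to 1455.

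Among enzymes that carry folate-bound carbons, 9 of 12 were higher, with a median of 0.13. Shmt2, the mitochondrial serine hydroxymethyltransferase, had 1349, 1288, 1224 and 1374 after saline and 1531, 1717 and 1492 after folinic acid, and was the 1 gene of this list whose groups did not overlap (log2 0.27 ± 0.21, unadjusted p = 0.225). Mthfd1, the cytosolic trifunctional enzyme, had 2124, 3453, 977 and 2093 against 3300, 2888 and 2486, at 0.55 ± 0.44. Mthfd2, its mitochondrial counterpart, had 442, 1395, 302 and 581 against 817, 1039 and 823, at 0.63 ± 0.60. In both genes saline replicate 2 was the highest of the 7 arrays and saline replicate 3 the lowest. Without saline replicate 3 they were at 0.21 and 0.32, the list median was -0.03 and 5 of 12 members were higher. The cytosolic Shmt1 was at -0.19 ± 0.23. The methenyltetrahydrofolate synthetase gene Mthfs, whose enzyme brings folinic acid into the active pool, was below the filter at 58.0, 71.5, 60.7 and 85.7 against 40.4, 82.2 and 52.2. A further probe set that it shares with another symbol was not counted for the gene.

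Lists drawn around the routes that use the carbons gave the same picture. In the methionine cycle and transsulfuration list 12 of 16 were higher with a median of 0.14, which was 0.03 without saline replicate 3. Methionine synthase, Mtr, was at -0.13 ± 0.28, adenosine kinase, Adk, at -0.22 ± 0.14 and cystathionine beta-synthase, Cbs, at 0.47 ± 0.45. In the list of purine and thymidylate synthesis, which also holds other pyrimidine genes, 16 of 20 were higher with a median of 0.08. Without saline replicate 3 the median was -0.03 and 6 of 20 were higher. The leading members of the list were Dhodh (0.52 ± 0.30) and Umps (0.29 ± 0.25), which are among these other pyrimidine genes. In both, saline replicate 3 was the lowest array, at 128 and 283. Thymidylate synthase, Tyms, was below the filter through its 4 probe sets with 1 gene symbol. A further probe set that it shares with another symbol was not counted for the gene. Among writers, erasers and readers of DNA methylation 5 of 12 were higher with a median of -0.06. Tet2, an eraser, was at -0.26 ± 0.14, Mbd3 at -0.28 ± 0.19 and Mbd2 at 0.26 ± 0.18, where Mbd genes encode readers. None of the 71 genes measured in these 5 lists had an unadjusted p under 0.05. In the list of serine synthesis and the amino acid stress response, 10 of 15 were higher with a median of 0.08, which was 0.02 with 8 higher without saline replicate 3. The neutral amino acid transporter Slc1a5 had 1310, 898, 1051 and 1085 against 1528, 1577 and 1739, with no overlap, at 0.58 ± 0.20, and was at 0.55 ± 0.20 in mutants. The transcription factor Atf4, which drives such genes under amino acid shortage, was at -0.24 ± 0.19.

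**Figure D4:**
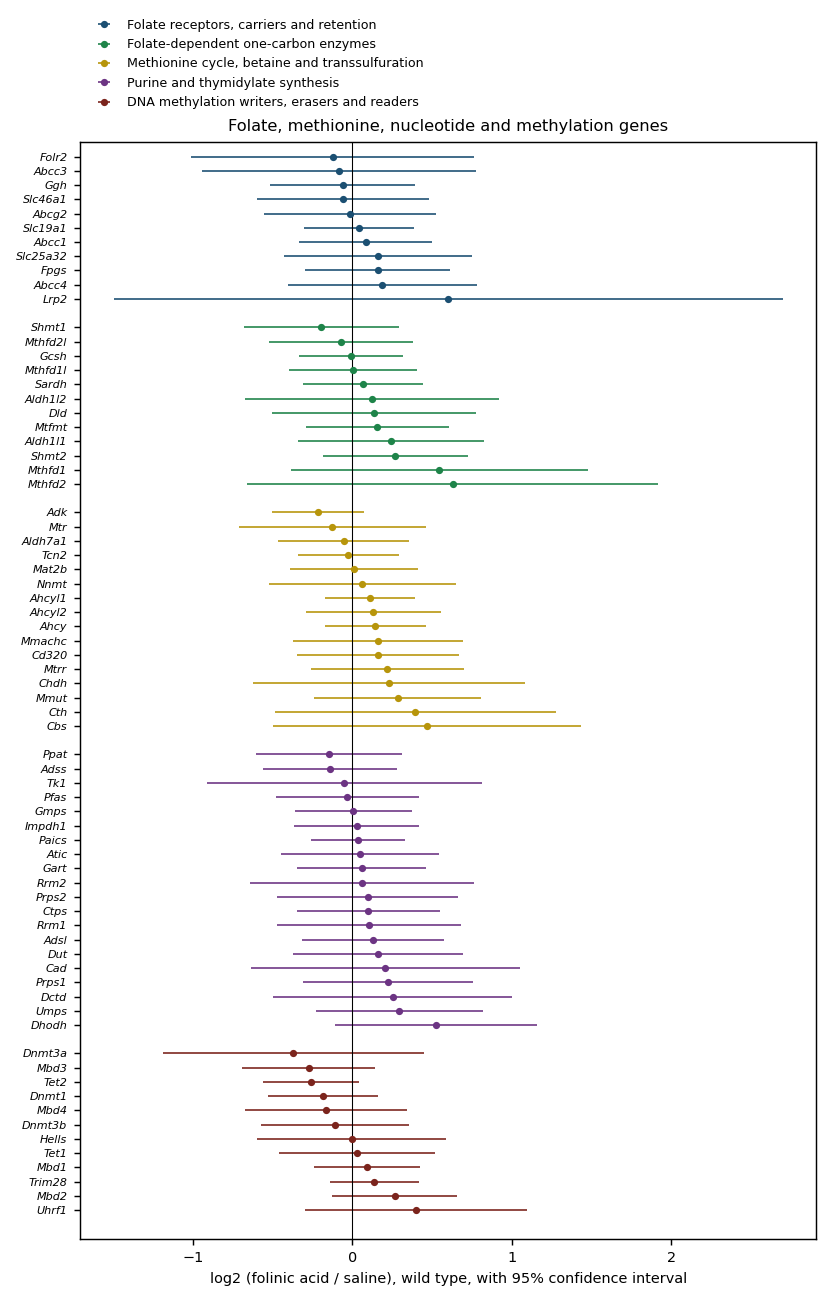
Log2 ratio of folinic acid to saline in wild-type uteri (x) with its 95% confidence interval for the measured genes of 5 lists, coloured by list. Every interval covers 0, and the interval of the reduced folate carrier gene Slc19a1 runs from -0.30 to 0.39.

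Genes of DNA replication leaned upward. Of 26 measured, 22 were higher with a median of 0.12, and 3 had an unadjusted p under 0.05, all higher. Besides Fen1 these were the G1/S cyclin gene Ccne1, with 180, 215, 257 and 203 after saline and 309, 286 and 455 after folinic acid (0.69 ± 0.29), and the helicase cofactor gene Cdc45, with 180, 191, 105 and 150 against 232, 173 and 331 (0.63 ± 0.27). The arrays did not overlap for Fen1 and Ccne1 and did for Cdc45. The summed signal of the 26 genes was 22754 to 27461 after saline and 25360 to 30872 after folinic acid, so the groups overlapped. With arrays left out, the list median ran from 0.06 (without folinic acid replicate 3) to 0.22 (without folinic acid replicate 2). It was 0.11 after quantile normalization and -0.31 in mutants. Mitosis and spindle genes did not share this lean, with 8 of 20 higher and a median of -0.04. Their median went from -0.31 without folinic acid replicate 3 to 0.14 without folinic acid replicate 2, and the kinase gene Aurka, which had 296, 355, 308 and 368 against 185, 244 and 458, was highest in folinic acid replicate 3. The cyclin gene Ccna2 was at -0.20 ± 0.29. In the list of Fanconi, homologous recombination and p53 genes 14 of 18 were higher with a median of 0.06 and 0 at an unadjusted p under 0.05. Without saline replicate 3 the median was 0.14 with 11 higher. The p53 targets Sesn1 and Gadd45a were at 0.35 ± 0.23 and -0.86 ± 0.54, and Gadd45a was at -0.44 without saline replicate 3, where its signal was 1519 against 443 to 499 on the other saline arrays.

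Genes of nuclear RNA binding and export, a list drawn up with the values of Hnrnpu and Thoc1 known, had 17 of 29 members lower and a median of -0.04, which was -0.03 after quantile normalization and -0.07 without saline replicate 3. At an unadjusted p under 0.05 there were 3, all lower. Thoc2 of the THO complex had 1925, 2032, 2135 and 1605 after saline and 1446, 1230 and 1510 after folinic acid, with no overlap (-0.46 ± 0.16, and -0.46 ± 0.16 in mutants). Hnrnpl, a splicing regulator, was at -0.51 ± 0.22 and the export adaptor gene Alyref at -0.39 ± 0.17. In mutants these were at -0.81 ± 0.22 and -1.05 ± 0.17. The other probe sets of Thoc2 were at 0.14 ± 0.21 and 0.02 ± 0.13, so its sign turned in the median over its probe sets (0.02). The list describes each gene by its brightest probe set, at which Hnrnpu was at -0.12 ± 0.12 and Thoc1 at 0.03 ± 0.18.

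Ribosomal, cytoskeletal and respiratory chain genes are among the brightest lists. Of 27 cytosolic ribosomal protein genes 24 were lower with a median of -0.19, and the median was 0.01 with 18 higher after quantile normalization. Rplp2, a protein of the ribosomal stalk, had 39803, 47335, 54706 and 39823 after saline and 32272, 30145 and 41444 after folinic acid, at -0.39 ± 0.14 as scaled and -0.07 on the quantile scale. Rpl22 was at -0.25 ± 0.11 and -0.02. In the actin cytoskeleton list 19 of 25 were lower with a median of -0.11, which was -0.05 with 15 lower after quantile normalization. The thymosin gene Tmsb4x was at -0.33 ± 0.15 as scaled and at 0.03 on the quantile scale. Myh9, the heavy chain of nonmuscle myosin IIA, had 6921, 6340, 7965 and 7026 against 4102, 4448 and 5930, and its difference was -0.56 ± 0.21 as scaled and -0.53 on the quantile scale. Myh9 thus kept most of its difference on that scale, as the thymosin gene Tmsb10 did through its leading probe set, while Tmsb4x, Rplp2 and Rpl22 did not. Of 52 respiratory chain genes 27 were lower with a median of -0.03. After quantile normalization 31 were higher with a median of 0.03, and without saline replicate 3 41 were lower with a median of -0.09. The ATP synthase gene Atp5h, the 1 member at an unadjusted p under 0.05, was at -0.28 ± 0.12 and at -0.19 on the quantile scale.

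Stromal genes were lower in 15 of 23 cases with a median of -0.09, or -0.06 after quantile normalization and -0.17 without saline replicate 3. At an unadjusted p under 0.05, 4 were lower and 1 higher, and after quantile normalization 2 were lower and 1 higher. The intermediate filament gene Vim had 9659, 12158, 15008 and 11342 after saline and 8786, 8483 and 8777 after folinic acid, with no overlap (-0.45 ± 0.14, and -0.39 on the quantile scale). The proteoglycan gene Lum had 19604, 13218, 24634 and 16611 against 13149, 15070 and 9313 (-0.56 ± 0.22, and -0.40), and its groups overlapped. Pdgfrb, the receptor of perivascular and stromal cells, had 5179, 6350, 6822 and 5409 against 5125, 4435 and 4034 (-0.39 ± 0.16, and -0.34). Dcn, by contrast, was at -0.30 ± 0.14 as scaled and at -0.06 on the quantile scale. Collagen genes were lower in 17 of 27 cases with a median of -0.07, or -0.04 with 17 lower after quantile normalization. The median was -0.17 with 24 lower without saline replicate 3 and 0.05 without folinic acid replicate 3. Their brightest members shifted with the scale, since Col3a1 was at -0.34 ± 0.12 as scaled and -0.04 on the quantile scale, and Col1a2 at -0.26 ± 0.11 and -0.04. Smooth muscle genes were divided, with 10 of 25 higher and a median of -0.04, and turned on the quantile scale, with 18 higher and a median of 0.04. Their median was -0.02 without saline replicate 3, -0.29 without folinic acid replicate 2 and 0.11 without folinic acid replicate 3. Acta2 at -0.39 ± 0.19 became -0.04 on the quantile scale. In whole uterus fewer cells of a type and less RNA per cell cannot be told apart.

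**Figure D5:**
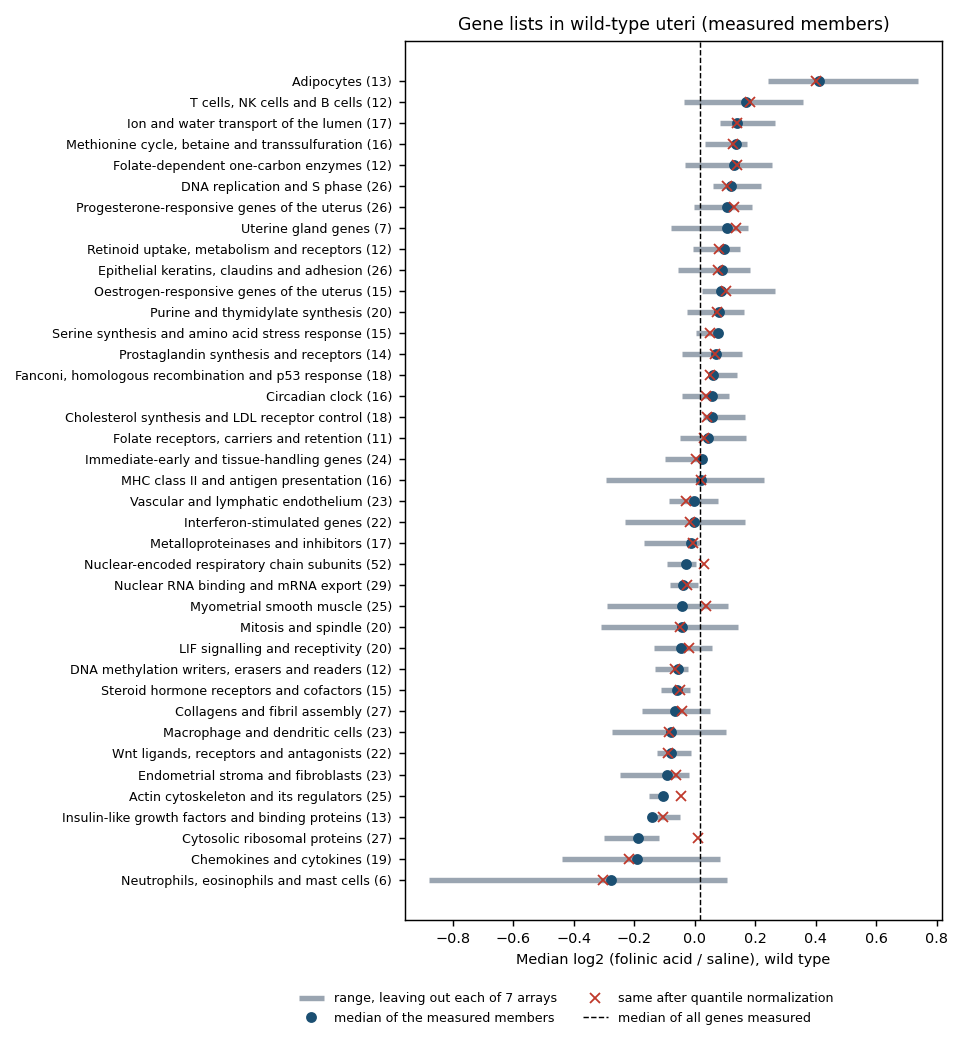
Median log2 ratio of folinic acid to saline in wild-type uteri (x) for each gene list with at least 6 measured members (number in brackets), with the range over 7 fits that each leave out 1 array in grey and the quantile-normalized median as a cross. The ribosomal list moves from -0.19 to 0.01 on the quantile scale, the adipocyte list has the highest median at 0.41, and the dashed line marks the median of all genes.

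Hormone-response genes were spread to both sides. Among receptors and cofactors 10 of 15 were lower with a median of -0.06, which was -0.10 without saline replicate 3, and Pgr itself had 9582, 11268, 14519 and 10004 after saline and 8793, 7048 and 12275 after folinic acid (-0.29 ± 0.26). Of 26 progesterone-responsive genes 18 were higher with a median of 0.11, which was 0.01 with 14 higher without saline replicate 3. Errfi1 was the 1 member at an unadjusted p under 0.05. The transcription factor gene Zbtb16 had 1925, 2214, 740 and 1493 against 2590, 2817 and 1712 (0.66 ± 0.53), and the receptor cochaperone gene Fkbp5 was at 0.46 ± 0.38. Both had their lowest value in saline replicate 3 and moved to 0.32 and 0.19 without it. Of 15 oestrogen-responsive genes 10 were higher with a median of 0.09, led by Krt5, with the deiminase gene Padi1 at 0.99 ± 0.59 (1.64 ± 0.59 in mutants) and Igf1, a growth factor of the stroma, at 0.44 ± 0.36. Igf1 had 4200 in saline replicate 3 against 9403 to 10805 on the other saline arrays and was at 0.12 without it.

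Genes of LIF signalling and receptivity were divided, with 9 of 20 higher, a median of -0.05 (0.06 with 11 higher without saline replicate 3) and 0 at an unadjusted p under 0.05. The kinase gene Sgk1, which acts on sodium uptake by the luminal epithelium, was at 0.46 ± 0.28, Wnt7b at 0.60 ± 0.33 and Cebpb, a factor of the decidual response, at -0.37 ± 0.25. In Sgk1 the 3 folinic acid arrays lay between 4860 and 5155, inside a saline range of 2742 to 6241. Ion and water transport genes were higher in 16 of 17 cases with a median of 0.14, between 0.08 and 0.27 when arrays were left out. Car12, a carbonic anhydrase, had 489, 169, 371 and 305 after saline and 911, 501 and 447 after folinic acid (0.92 ± 0.37, and 1.11 ± 0.37 in mutants), and was the 1 member at an unadjusted p under 0.05. The water channel gene Aqp5 was at 0.48 ± 0.32 and the sodium pump regulator gene Fxyd3 at 0.35 ± 0.23. The list median in mutants was -0.19, so the lean of the list was not seen again there while that of Car12 was. Wnt ligands, receptors and antagonists were lower in 17 of 22 cases, with a median of -0.08, and in 13 of 22 with a median of -0.10 without saline replicate 3. Axin2, a feedback target of beta-catenin signalling, had 1004, 912, 1070 and 850 against 648, 664 and 674 (-0.53 ± 0.22), and Wnt5b had 240, 232, 329 and 272 against 160, 192 and 182 (-0.58 ± 0.20). The folinic acid arrays of both lay below all saline arrays. In mutants they were at 0.18 ± 0.22 and 0.18 ± 0.20. Metalloproteinases and inhibitors were lower in 10 of 17 cases with a median of -0.01, which was -0.17 with 13 lower without saline replicate 3. Among them Adamts9 was at 0.52 ± 0.23 and Mmp11, at -0.84 ± 0.44, moved to -0.41 without saline replicate 3, which had 2209 against 633 to 689 on the other saline arrays.

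Markers of cells other than those of the uterine wall varied widely between uteri of the same group. All 13 measured adipocyte genes were higher after folinic acid, with a median of 0.41, and 1, the fatty acid synthase gene Fasn, had an unadjusted p under 0.05. Adipoq, the adiponectin gene that defines fat cells, had 4861, 67.0, 2985 and 1395 after saline and 1774, 1308 and 5332 after folinic acid. The fatty acid binding protein gene Fabp4 had 7299, 188, 6534 and 2494 against 4824, 1773 and 15563. Saline replicate 2 was the lowest array and folinic acid replicate 3 the highest in both. The summed signal of the 13 genes was 17708 to 45681 in the saline group and 25062 to 87428 in the folinic acid group. The list median was 0.24 without saline replicate 2, reached 0.74 without folinic acid replicate 2, and was -0.26 in mutants. Retn, the fat-cell hormone resistin, at 1.96 ± 1.22, and the desaturase gene Scd1, at 0.91 ± 0.65, had wide errors. Fasn had 2883, 2842, 2531 and 2518 against 4238, 2797 and 5093.

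Immune lists gave no gene at an unadjusted p under 0.05 except H2-Oa of antigen loading, at -0.75 ± 0.34. Its list was even, with 8 of 16 higher and a median of 0.02, which was -0.12 with 13 lower without saline replicate 3. Macrophage and dendritic cell genes were lower in 18 of 23 cases with a median of -0.08, and the list median went from -0.27 without saline replicate 2 to 0.10 without saline replicate 4, and was -0.12 without saline replicate 3. Their summed signal was 31428 to 72535 after saline and 39356 to 48941 after folinic acid. The phagocyte gene Cd68 was at -0.39 ± 0.44. T, NK and B cell genes were higher in 9 of 12 cases with a median of 0.17, which was -0.04 with 3 higher without saline replicate 3. Only 6 of 19 genes of neutrophils, eosinophils and mast cells were measured, and 5 of them were lower. Interferon-stimulated genes were divided, with 11 of 22 higher and a median of -0.004, as were endothelial genes, with 11 of 23 higher and the same median. Without saline replicate 3 these medians were 0.02 and -0.09. Whether the number of immune or fat cells in a dissected uterus had a part in these values was not tested.

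Over all 42 lists, 737 genes were measured of 894 on the array. Of these 28, or 3.8%, had an unadjusted p under 0.05, against the 1.23% higher and 1.1% lower of all genes. The lists were drawn up with earlier results of these arrays known, so this share supports nothing, and 0 members passed the adjusted threshold in limma.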

How the data were processed

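Uterus RNA was labelled by a one-cycle assay and measured on 14 Affymetrix mouse arrays, 1 per sample. The authors deposited 1 linear intensity signal for each probe set, made with MAS5 per the submitters' processing notes, which give no version. The mean after trimming 2% at each end was 500 on every array, so the authors had scaled each by 1 factor. No genome build is given in the sources used here. Of 45101 probe sets, 64 controls were left out. Of the others 34945 carried 1 gene symbol, 932 several and 9160 none, and 34741 were matched to the reference annotation by gene identifier. Signals under 1 were raised to 1 (0.505% of values) before log2.

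The test was limma 3.58.1 (R 4.3.3), two-sided, in 1 fit of 4 group means with a variance trend (10 residual and 5.04 prior degrees of freedom) and Benjamini-Hochberg adjustment over all probe sets kept. Errors are standard errors of that fit. The fit was tested on simulated data. Genes named were, among probe sets with 1 gene symbol, the 12 per direction with the smallest p and the 10 genes per direction with the largest difference without overlap, up to 3 genes per list with the smallest p, and 12 folate genes, of which those that carry a result are printed. Dcn, Hoxa10, Krt8, Cyp11a1, Ckm, Foxj1, Adipoq, Fabp4, Acta1 and Star are tissue markers. The comparison, the 42 gene lists and these rules were chosen with earlier results of these data known. For arrays, their number limits the precision.

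Same-numbered wild-type arrays of the 2 groups deviated from their group means with correlations of 0.252, -0.076 and 0.246, so the replicate numbers were not taken as pairs. Alternatives were quantile normalization, an offset of 16, keeping all probe sets or the brightest 35 percent, no variance trend, robust variances, array weights, the 7 wild-type arrays alone, a replicate block, averaged arrays of a shared title number, the actin ratio as covariate, the median over the probe sets of a gene, and leaving out each array. The classes of brightness and the lists on the quantile scale were chosen after seeing the data.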

Additional observations from a re-analysis of the deposited data

Results flagged for a closer look

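In 8 of 108 sets of saline values tested, 1 of the 4 arrays lay far from the other 3 by Dixon's test, where about 1 in 20 would by chance. Saline replicate 3 was the far array for Hnrnpul2 (1343), Ecpas (554), Col1a2 (30816), Gadd45a (1519) and Mmp11 (2209), and the highest each time. Saline replicate 2 was far above the others for Lrp2 (3885). Saline replicate 1 was far below the others for Ccna2 (569) and Hnrnpl (445). The cause was not tested.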

How the results depend on the processing

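Under every alternative run, limma called 0 probe sets for folinic acid in wild type and 0 for the difference from mutants. The number at an unadjusted p under 0.05 was 611, and became 1555 with no filter, 1435 with array weights and 318 with arrays of a shared title number averaged, of which 537, 669 and 153 were higher, against 268. It was 648 with a replicate block, which changed no call; the numbers were not taken as pairs. Without 1 array it lay between 438 (folinic acid replicate 2) and 774 (folinic acid replicate 3), and was 553 without saline replicate 3. Of 100 named log2 differences, 12 turned sign somewhere. The median over the probe sets of a gene gave 0.0067 for Tex261, 0.051 for Trip12, 0.027 for Ecpas, 0.018 for Thoc2 and 0.056 for Slc46a1, and quantile normalization gave 0.031 for Tmsb4x. Averaging shared title numbers gave 0.12 for Ovgp1, 0.064 for Slc46a1 and 0.094 for Mtr, the actin covariate 0.090 for Slc46a1 and 0.0068 for Mtr, array weights -0.096 for Slc19a1 and the replicate block 0.020 for Folr2. Leaving out 1 array gave ranges of -0.64 to 0.017 for Aurka, -0.97 to 0.35 for Ovgp1, -0.45 to 0.095 for Folr2, -0.088 to 0.12 for Slc19a1, -0.21 to 0.14 for Slc46a1, -0.36 to 0.10 for Mtr and -0.32 to 0.031 for Shmt1. Of 42 list medians, 10 moved by over 1 SD under some alternative. This SD is that of the mean log2 signal of a list's members between arrays of the same group. Smaller moves could still turn the sign when arrays were left out, as for macrophage (-0.27 to 0.10) and smooth muscle genes (-0.29 to 0.11). The cause was not tested. With 3 and 4 arrays 87.5% of intervals excluded a 2-fold difference, and smaller ones were often not detectable.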
